A study of Homo sapiens with 2 samples.

Results

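Short interspersed elements (SINEs) are repeats that were copied through RNA and carry an internal promoter for RNA polymerase III. In human cells nearly all of them belong to Alu, a primate family that grew out of the RNA of the signal recognition particle, or to MIR, an older mammalian family that grew out of a tRNA. The name MIR stands for mammalian-wide interspersed repeat and has nothing to do with miRNA. Argonaute proteins hold small RNAs, mostly miRNAs cut by Dicer from hairpins, and these small RNAs guide the protein to target transcripts.

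The regions described here are stacks of overlapping small RNA reads that lie on the same strand as a SINE. Small RNA was pulled down with FLAG-tagged AGO3 or FLAG-tagged AGO2 from HEK293 T-Rex cells, a human embryonic kidney line, with 1 library per protein. The AGO3 library held 4667236 reads and the AGO2 library 6674064. The stack list is a single pooled list, so no stack can be assigned to AGO3 or AGO2, no value below has a replicate and no test between groups was made. A stack was a member when it had at least 5 reads, fewer than 0.9 edits per read (the list's own field, taken here as mismatches to the genome), a SINE on its own strand and no LINE or LTR repeat there. Mitochondrial stacks and stacks over miRNA precursors, tRNA, rRNA, snoRNA, snRNA or scRNA were left out.

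This rule gave 1206 of 502547 stacks. They held 52238 of 68649476 reads, a share of 0.0761% (exact Clopper-Pearson 95% interval 0.0754 to 0.0767, counting error only, as for all intervals of shares below). The whole list holds 6.05 times the reads of both libraries together, and no source used here states what was pooled. Positions are those of the list, which uses chromosome names of build hg19.

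Most SINE stacks were too shallow to enter. Of 18642 stacks on the strand of a SINE, 14344 (76.9%) had 1 read and 2800 had 2 to 4 reads. Of the 1498 with at least 5 reads, the limit on edits removed 238, LINE or LTR items removed 23, overlap with a miRNA precursor removed 24 and other structural RNAs removed 7. The 24 stacks over miRNA precursors held 377132 reads, more than all members together. At the limits themselves, 193 members had exactly 5 reads, while 291 otherwise similar stacks had 4 reads. The member nearest the edit limit had 8 edits in 9 reads, and the nearest stack outside had 9 edits in 10 reads. Of the 232 stacks kept out by edits alone, 205 had exactly 1 edit per read.

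Alu gave most of the stacks and MIR most of the reads. There were 746 Alu stacks (61.9% of members) with 17751 reads (34.0%), and 456 MIR stacks (37.8%) with 34405 reads (65.9%). The remaining 4 members were 2 stacks that touch both families, 1 on the ancient element AmnSINE2 with 17 reads and 1 on LFSINE_Vert, in an intron of DPYD (pyrimidine breakdown), with 9 reads. The typical stack was alike in both families: the median was 10 reads for Alu (quartiles 6 and 17) and 11 for MIR (7 and 27). The families stood apart among the deepest stacks. Of 72 members with at least 100 reads, 43 were MIR and 29 were Alu, and all 6 members with at least 1000 reads were MIR. These 72 held 65.8% of the reads of all members. The deepest stack alone held 19.8% of all member reads and 30.1% of MIR reads, and without it MIR still held 57.4% of the reads.

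**Figure D1:**
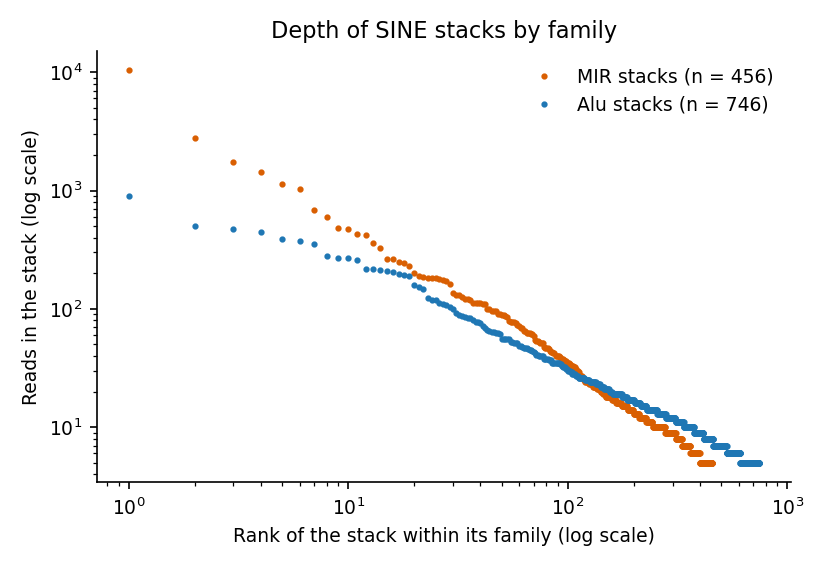
Reads per stack (log scale) against the rank of the stack within its family (log scale) for 456 MIR and 746 Alu stacks, 1 point per stack in the pooled list. The deepest MIR stack has 10357 reads and the deepest Alu stack 904.

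The share of MIR moved with depth. Among stacks chosen by the same criteria but with 1 read, MIR made up 36.1% and Alu 63.6%. MIR made up 32.4% of stacks with 5 to 9 reads, 38.0% with 10 to 19, 43.5% with 20 to 99 and 59.7% with 100 or more. These depth classes include the measure that chose the members, so they describe the list and support no further statement.

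The 15 members with the most reads held 44.9% of member reads. Of these, 11 were MIR and 4 were Alu, 11 spanned 22 to 29 bases, 4 spanned more than 50 bases and 3 had a neighbouring stack on the same strand. The deepest lay at chr20:14717294-14717319 on the minus strand, over a MIR element and antisense to MACROD2, which removes ADP-ribose from proteins. It had 10357 reads, 26 bases of span and only 82 edits, and the list counts 228 unique reads in it (no source used here defines this field). The second had 2776 reads over a MIRc element at chr8:120083247-120083270, antisense to the liver lectin gene COLEC10. It carried 0.222 edits per read, against 0.00792 in the deepest stack.

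Further antisense stacks had the same form. At chr16:11816381-11816402, antisense to TXNDC11 (a thioredoxin-like protein of the endoplasmic reticulum), 1740 reads covered 22 bases of a MIRc element with 13 edits in all. At chr2:31297067-31297091, antisense to GALNT14 (which starts O-linked glycosylation), 1135 reads covered 25 bases of a MIRc element. Of the 15 deepest members, 5 lay antisense to a gene without a gene on their own strand, 7 lay in introns of their own strand, 1 in an exon and 2 outside genes.

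Among the intronic ones, a MIRb element in FSTL5, a secreted follistatin-like protein, carried 1422 reads on 28 bases at chr4:162816976-162817003. Its reads held 0.477 edits each on average. A MIRc element in FCHSD2, a membrane-shaping protein, carried 485 reads on 26 bases at chr11:72742740-72742765 with 0.608 edits per read. By contrast a MIR3 element in OC90, which encodes a protein of the inner ear, carried 689 reads on 22 bases at chr8:133069260-133069281 with 0 edits. A MIR element in ZBTB20, a transcriptional repressor, carried 597 reads on 27 bases at chr3:114072758-114072784. Edits per read thus spread from 0 to 0.608 among these deep stacks. Only the stacks in FSTL5 and FCHSD2 passed 0.4, and 4 of the 15 were under 0.05.

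The remaining sharp stacks among the 15 were on old Alu elements or outside genes. An AluJo element outside genes at chr12:115079965-115079993 had 503 reads on 29 bases. An AluJb element in an intron of the actin regulator GMFG had 469 reads on 26 bases at chr19:39821609-39821634. A MIR element outside genes at chr19:39551018-39551043 had 432 reads on 26 bases.

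The other 4 of these 15 were broad. A MIR element near the start of PAMR1 at chr11:35548040-35548271 had 1024 reads over 232 bases, in a region annotated as promoter, 5′ UTR and intron. An AluSx1 element in DLEU2 had 904 reads over 73 bases at chr13:50621431-50621503, the deepest Alu stack. DLEU2 is the host transcript of mir-15a and mir-16-1, and this stack lay 1595 bases from the stack of mir-16-1, which had 601393 reads on the same strand. In TNFRSF10D, a decoy receptor of the death ligand TRAIL, 450 reads spanned 404 bases of the 3′ UTR at chr8:22994647-22995050, across a FLAM_C element and the DNA transposons MER47C and Tigger5. Neighbouring stacks of 252 and 263 reads in the same UTR lay 4 and 69 bases away.

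The last broad stack lay on a MIR element antisense to POLR3E, which encodes a subunit of RNA polymerase III. In mouse, a MIR within this gene is known to be transcribed by that polymerase. The stack at chr16:22309815-22309948 on the minus strand had 475 reads over 134 bases and a profile entropy of 1.765. Another minus-strand stack of 169 reads lay 37 bases away with no repeat annotated on it. On the strand of POLR3E, 57 reads overlapped the MIR stack by 34 bases and 14 reads lay 21 bases from it.

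By subfamily, the element MIR itself led both lists, with 191 stacks and 18642 reads. Of these reads 10357 came from the deepest stack, without which MIR would lie below MIRc in reads. In stacks MIR was followed by MIRb (137), AluJb (133), AluJr (95), MIRc (79), AluJo (75), AluSx (75), AluSx1 (55), AluSz (55) and MIR3 (52). In reads the order was MIRc (8899), MIRb (5081), AluJb (3419), AluJo (2840), MIR3 (1854), AluSx1 (1791), AluSz (1637), AluJr (1465) and FLAM_C (951). MIRc thus held 79 stacks but the second largest number of reads, of which 2776 came from the stack opposite COLEC10. Likewise 904 of the AluSx1 reads came from the DLEU2 stack and 450 of the FLAM_C reads from the TNFRSF10D stack. In all, 37 subfamilies were represented and 8 of them by 1 stack. A stack over elements of more than 1 subfamily, as in 8 members, counts under each.

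**Figure D2:**
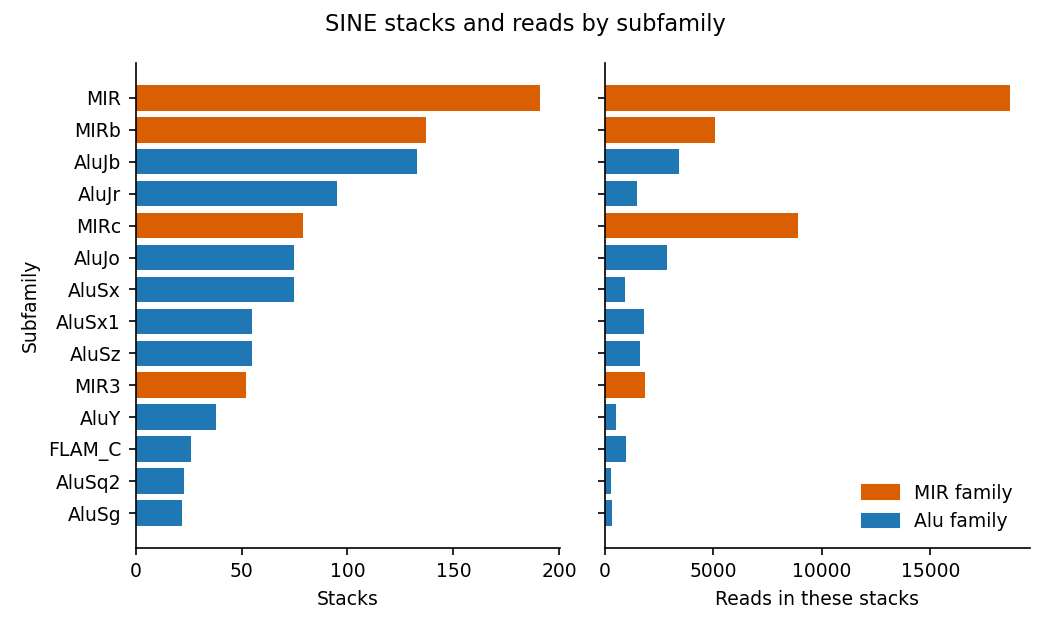
Number of member stacks (left, axis in stacks) and reads in them (right, axis in reads) for the 14 subfamilies with the most stacks, in order of stacks, with MIR and Alu subfamilies in different colours. MIR has 191 stacks with 18642 reads, 10357 of them in 1 stack, and AluJb 133 stacks with 3419 reads.

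Alu subfamilies are conventionally ordered by age, with AluJ oldest, AluS intermediate and AluY youngest, and FLAM, FRAM and FAM are free single arms. AluJ gave 317 stacks with 8227 reads and AluS gave 326 stacks with 7496 reads. AluY gave 44 stacks with 554 reads, and the single arms gave 56 stacks with 1425 reads. Of the single-arm reads, 450 lay in the broad TNFRSF10D stack, which also covers DNA transposons. Median depth differed little between these groups, at 10 reads for AluJ, 9 for AluS, 8.5 for AluY and 9 for single arms. No AluY stack reached 100 reads, but only 29 of all 746 Alu stacks (3.89%) did. Among Alu stacks of 1 read, 37.5% were AluJ, 50.7% AluS and 5.33% AluY. Among those with 10 to 19 reads, 45.8% were AluJ, 39.4% AluS and 7.41% AluY, and among those with 20 to 99 reads the shares were 37.7%, 48.5% and 3.85%. At 5 to 9 reads they were 41.5%, 44.7% and 6.20%, and at 100 or more 51.7%, 41.4% and 0%. The mix thus followed no steady course with depth.

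The list puts each stack in a mapping class named UNIQ40 or UNIQ10. Over 367811 stacks of 1 read, every UNIQ40 stack had a uniqueness value of at least 40 and every UNIQ10 stack one of at most 39. For those in UNIQ40 without an edit the value was always 2 points per base of the stack, and the shortest of the class had 20 bases. How the class of a deeper stack was chosen is not stated. Of the members, 868 (72.0%) were UNIQ40. The share was 60.7% in members with 5 to 9 reads and 93.1% in those with 100 or more, and the uniqueness value follows length in those stacks of 1 read, so the class is no plain measure of unique placement. The share was 66.5% for Alu and 80.7% for MIR, which holds more of the deep stacks, and by age it was 67.2% for AluJ, 66.0% for AluS and 50% for AluY. Reads from young Alu copies can match many places, so the position of an Alu stack may not be its source. All 15 deepest members were UNIQ40. Stacks without a repeat on either strand were UNIQ40 in 90.6% of cases, LINE stacks in 57.2% and LTR stacks in 67.6%.

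A further number in the class name equalled the edits of the read in all stacks of 1 read. In deeper stacks it is not the number of edits, and what it stands for there is not stated. It was 1 in 187 members (15.5%) and 0 in the others. It was 1 in 166 Alu stacks (22.3%) and 20 MIR stacks (4.39%), beside 7.50% of LINE stacks and 5.33% of LTR stacks.

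Edits per read were spread alike in both families. The median was 0.133 over all members, 0.135 for Alu and 0.128 for MIR, and 329 members (27.3%) had no edit at all. Pooled over reads the rate was 0.142 in SINE stacks, 0.155 in LINE stacks, 0.159 in LTR stacks and 0.146 in stacks without a repeat. Since the rule used edits, these values describe the members only. Between 0.5 and 0.9 edits per read lay 63 members, and leaving them out changed the number of members to 1143.

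SINE stacks were mostly short, as were LINE and LTR stacks. The median span was 25 bases (quartiles 23 and 27), the most common span was 23 bases with 163 stacks, and 771 members (63.9%) spanned 20 to 26 bases. Alu stacks had a median of 25 bases and MIR stacks of 24. LINE stacks had a median of 23 bases, with 53.9% at 20 to 26 bases. LTR stacks had a median of 24 bases, with 50.7% in that range, and stacks without a repeat a median of 28 bases, with 40.6%. The span is that of the stack and not of a read, so overlapping reads of different start make it longer. Only 65 SINE stacks (5.39%) exceeded 50 bases, but they held 10.1% of member reads. The share over 50 bases was 5.62% in LINE stacks, 5.56% in LTR stacks and 18.1% in stacks without a repeat.

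**Figure D3:**
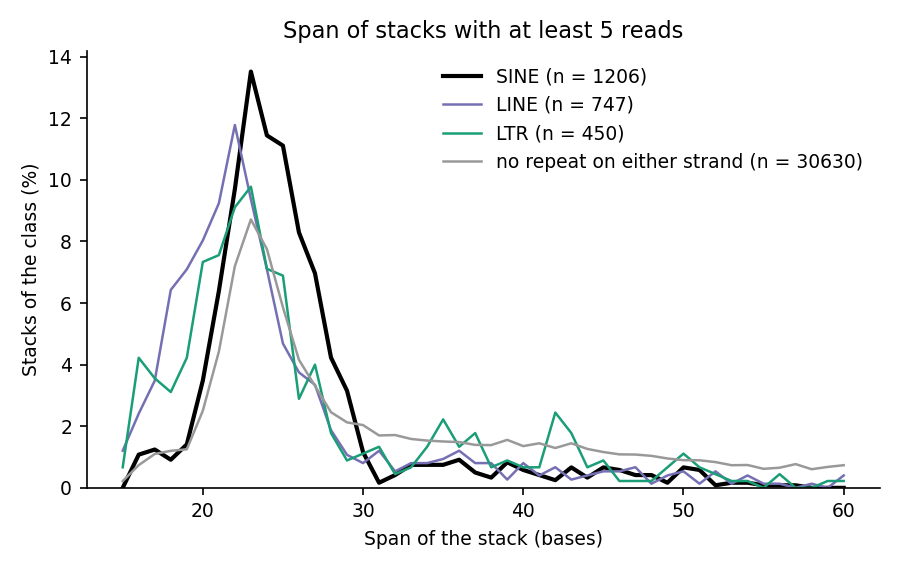
Share of stacks in percent (vertical) by span in bases (horizontal) for SINE stacks and, with the same limits on reads and edits, LINE stacks, LTR stacks and stacks with no repeat on either strand. All 4 lines peak at 22 or 23 bases, and the line of SINE stacks reaches 13.5% at 23 bases.

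Profile entropy is an entropy that the authors computed per stack, without a definition in the sources. Its median was 0.055 in SINE stacks, 0.065 in LINE stacks, 0.0785 in LTR stacks and 0.127 in stacks without a repeat, and it was 0.045 in stacks opposite a SINE. In 189 members (15.7%) it was 0. The highest total entropies among members with at least 100 reads were those of TNFRSF10D (2.82), PAMR1 (2.77) and the stack opposite POLR3E (2.21), which are also among the broad ones. The longest 3 were TNFRSF10D, a stack of 420 reads over 254 bases at chrX:148146570-148146823 on a MIR and a Charlie23a element, and PAMR1.

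Most members in genes lay in introns. Of the 1206, 479 (39.7%) lay in introns on their own strand, 88 (7.30%) in exons, 248 (20.6%) antisense to a gene with no gene on their own strand and 391 (32.4%) outside genes. Alu and MIR were much alike, with 39.9% and 39.3% in introns, while 5.90% of Alu and 9.65% of MIR stacks were exonic. Reads were divided otherwise: antisense stacks held 56.7% of MIR reads and 14% of Alu reads, and introns 27.9% and 50.1%. The deepest stack and the next in COLEC10, TXNDC11 and GALNT14 made up most of the antisense MIR reads. For comparison, LINE stacks were intronic in 27.0% and outside genes in 38.2% of cases, LTR stacks in 17.3% and 52.9%, and stacks without a repeat were exonic in 49.1%.

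Exonic members were broader than the others. Their median span was 31.5 bases against 25 in introns, and 19.3% exceeded 50 bases against 3.76%. Of the 88, 58 were annotated as 3′ UTR, 6 as 5′ UTR and 22 as noncoding RNA, with some in more than 1 kind. After TNFRSF10D, the deepest exonic stack was an AluSg7 across a 3′ splice site of MED12, a Mediator subunit, with 159 reads over 73 bases at chrX:70361661-70361733. A MIRc in the long noncoding RNA gene XIST had 99 reads over 172 bases at chrX:73044254-73044425. A MIR across a 3′ splice site of ADCK4, a gene of coenzyme Q synthesis, had 78 reads over 57 bases at chr19:41209760-41209816. A MIRb in the snoRNA host gene SNHG12 had 59 reads over 29 bases at chr1:28907706-28907734.

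Members were scattered over many genes. On their own strand they touched 539 gene names, of which 49 held at least 2 members and 3 at least 3. Alternative or overlapping names of the same place were counted separately. For example, AC005307.3 and AC005616.1 held the same 2 stacks. The acetyltransferase gene EP300 and XIST held 4 each, and ERC1 held 3. The 4 in EP300 had 34 reads in all. All chromosomes except the mitochondrial one, which the rule left out, held members, 24 in number. Chromosome 19 held 7.63% of members, beside 7.66% of all stacks that passed the same limits. Among the larger differences, chromosome 4 held 4.89%, beside 3.17%, and chromosome 15 held 4.48%, beside 2.98%. Chromosome 6 held 3.57%, beside 5.10%, and chromosome 11 held 2.99%, beside 4.48%.

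Strand relative to the repeat could be examined because stacks on the opposite strand are outside the rule. With the same limits on reads and edits, 616 stacks lay opposite a SINE, so that 66.2% (64.0 to 68.4) of stacks over SINEs were on the strand of the repeat. The share was 64.7% (61.9 to 67.5) for Alu, from 746 and 407 stacks, and 68.9% (65.2 to 72.4) for MIR, from 456 and 206. For LINEs it was 49.9% (47.3 to 52.4) and for LTR repeats 44.5% (41.4 to 47.6). In reads, 89.2% of MIR reads were on the strand of the repeat, or 85.2% without the deepest stack, and 56.6% of Alu reads. Of the 13599 reads opposite Alu elements, 2789 (20.5%) came from 1 stack in STK4. The Alu share without that stack was not computed. Members were cleared of LINE and LTR items on their own strand only, but stacks opposite a SINE on both strands. The 52 members with a SINE on both strands counted only for the strand of the repeat. Both choices can raise the strand shares here and below, and the LINE and LTR sets were built alike. With LINE or LTR items kept in both SINE sets the share was 65.3% (63.1 to 67.4).

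The strand share of SINEs was also computed by depth. At 1 read it was 55.3% (54.4 to 56.1) for Alu and 55.5% (54.3 to 56.6) for MIR, and at 2 to 4 reads it was 64.3% and 63.9%. For MIR it was 63.9% (58.0 to 69.6) at 5 to 9 reads, 67.2% (60.2 to 73.7) at 10 to 19 reads, 74.3% (66.1 to 81.4) at 20 to 99 and 89.6% (77.3 to 96.5) at 100 or more, the last from 43 and 5 stacks. For Alu it was 64.0% (57.0 to 70.6) at 20 to 99 and 58.0% (43.2 to 71.8) at 100 or more. From 2 to 99 reads the intervals of the depth classes overlapped in both families, and only the MIR class of 100 or more reads, with its 43 and 5 stacks, lay above those of 2 to 19 reads. The intervals treat each stack as independent, although stacks are not replicates, so this is no test between depth classes. Stacks of 1 read pass the limit on edits only without an edit, so their class was chosen more strictly. LINE stacks stood at 42.7% at 1 read and 55.7% (43.3 to 67.6) at 100 or more, and LTR stacks at 45.6% and 28.0% (20.1 to 37.0).

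**Figure D4:**
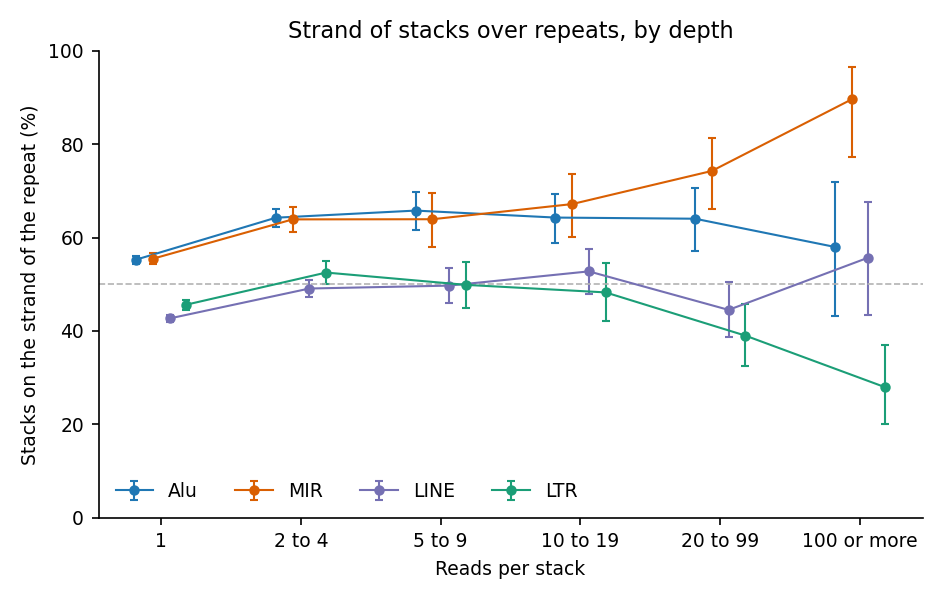
Share in percent (vertical) of stacks over a repeat that lie on the strand of the repeat, by reads per stack (horizontal), for Alu, MIR, LINE and LTR. Bars are exact 95% intervals for counting error and the dashed line marks 50%. MIR reaches 89.6% at 100 or more reads, while LTR lies at 28.0%.

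The strand share was above 50% in every gene context. For SINEs it was 64.2% (60.7 to 67.7) for stacks in introns of their own strand, 70.9% (65.8 to 75.6) for stacks antisense to a gene, 67.0% (63.0 to 70.8) outside genes and 62.0% (53.5 to 70.0) in exons. It was 68.6% (66.0 to 71.2) in the UNIQ40 class and 60.7% (56.5 to 64.8) in the UNIQ10 class. The 3 deepest stacks opposite a SINE were all opposite Alu elements and in introns. They lay in STK4, a Hippo pathway kinase, with 2789 reads on 25 bases at chr20:43620294-43620318, in the actin-binding gene LASP1 with 729 reads, and in NUDT19 with 630 reads.

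Some members had a close neighbour on their own strand, a smaller share than in stacks without a repeat. Another stack of at least 5 reads within 100 bases was found for 151 members (12.5%). The share was 20.6% for MIR (94 stacks) and 7.64% for Alu (57 stacks), and MIR exceeded Alu in each depth class: 12.8% and 5.93% at 5 to 9 reads, 18% and 6.02% at 10 to 19, 37.6% and 13.1% at 20 to 99, and 20.9% and 17.2% at 100 or more, the last from 9 and 5 stacks. LINE stacks had such a neighbour in 7.76% of cases, LTR stacks in 8.44% and stacks without a repeat in 23.8%. On the opposite strand a neighbour within 100 bases was rare, in 12 members (0.995%). Neighbours on the same strand were limited by reads only, not by edits or annotation. For 107 of the 151 members the neighbour was itself a member.

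The gap to the nearest neighbour was short. Its median was 13 bases (quartiles 9 and 20), and it was 5 to 20 bases for 101 of the 151, a window chosen after the values were seen. In stacks without a repeat the median gap was 14 bases with quartiles of 8 and 31, and 54.4% of the gaps lay in that window, beside 66.9% in SINE stacks and 74.1% in LINE stacks.

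**Figure D5:**
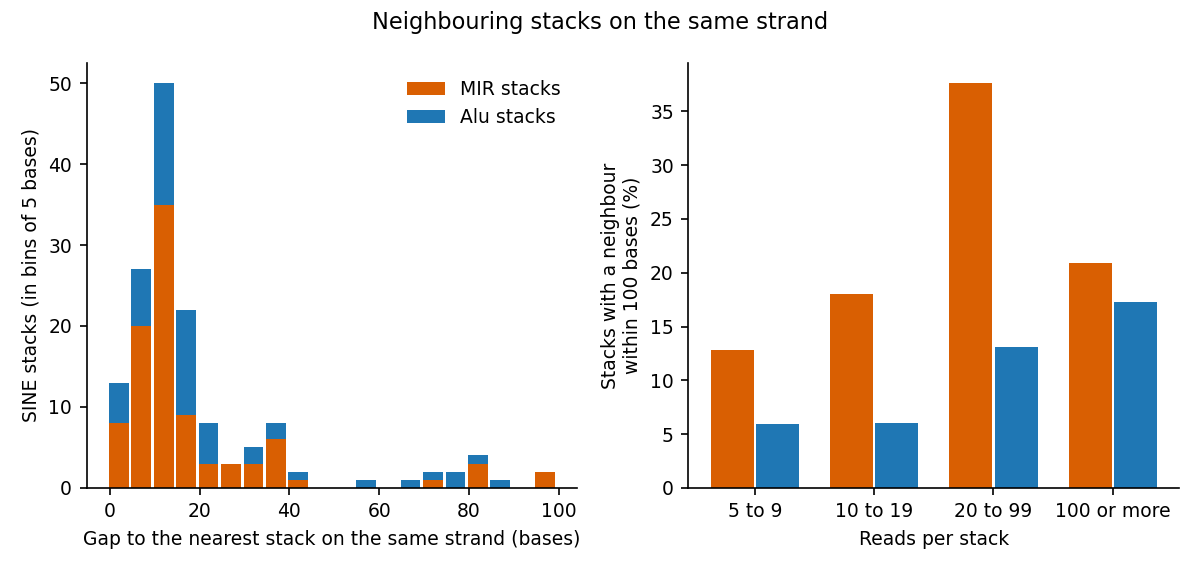
Left, number of SINE stacks (vertical, bins of 5 bases) by the gap in bases to the nearest stack on the same strand, with MIR and Alu stacks stacked on each other. Right, share in percent of MIR and Alu stacks with such a neighbour within 100 bases by reads per stack. Most gaps are under 20 bases, and the share for MIR is highest at 20 to 99 reads (37.6%).

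Both stacks were members in 40 pairs with a gap of 5 to 20 bases, 27 of them on MIR and 13 on Alu elements. In all 40 both stacks carried the same subfamily name, which the short gap makes likely from the start. The deeper stack had a median of 4.03 times the reads of the other (from 1 to 39.8 times). It was the downstream stack, nearer the 3′ end, in 26 pairs and the upstream stack in 12, while 2 pairs were equal. No such count is given for stacks outside SINEs.

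Individual pairs show the form. On a MIR element outside genes, 40 reads at chr19:39550982-39551009 were followed after 8 bases by 432 reads at chr19:39551018-39551043. On an AluJr4 in an intron of the glycolysis regulator PFKFB3, 35 reads at chr10:6212435-6212461 were followed after 15 bases by 376 reads. The reverse order of depth was seen on an AluJo in TXNDC16, where 389 reads at chr14:52956625-52956654 preceded 26 reads by 11 bases. Each stack in these pairs spanned 25 to 30 bases.

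Pairs of more even depth included a MIRb in CORO2B, a coronin, with 54 reads at chr15:68993574-68993601 and 31 reads 13 bases on. A MIR opposite MAP3K12, a kinase of axon injury signalling, had 34 and then 51 reads with a gap of 13 bases at chr12:53890801-53890862. An AluSz in the integrin gene ITGAV had 49 and then 35 reads with a gap of 16 bases at chr2:187541225-187541290. The folding of these regions was not analysed here.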

How the data were processed

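The members and lists were chosen with earlier results of these data known. Small RNA from immunoprecipitated FLAG-tagged AGO3 and AGO2 was sequenced, and per the labels custom RNA adapters were ligated before reverse transcription. The deposited stack list gives 1 raw read count per stack, which equals its own field of reads in every line. It also gives an entropy score, which the authors computed and which equals the total entropy field. The list's source column names a PAR-CLIP script, and per the submitters' processing notes Bowtie2 2.1.0 and hg19 were used, with no role given. The deposited miRNA tables hold raw counts per precursor, and only their header totals were used. Which libraries were pooled and how reads that match several places were treated are not stated in any source used here; the field for supporting libraries is 1 in every stack.

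Members were found from the annotation on the strand of the stack. The same limits on reads and edits were applied to LINE and LTR stacks, to stacks with no repeat on either strand and to stacks opposite a SINE. Context was assigned in the order exon, intron, antisense, outside genes. Stacks share reads, depth and annotation and are not replicates, so values are counts, medians and quartiles, and no test was made. Intervals of shares are exact (Clopper-Pearson, 95%) and cover at most counting error. They count reads or stacks as independent, although no molecular identifiers were available and reads may be copies of 1 molecule. Intervals of medians (95%) served only to compare processing choices. They come from the ordered values of the stacks and reflect the spread over stacks. Stacks named are the 15 deepest, the deepest 3 of each family, the 5 deepest exonic, the 3 deepest opposite a SINE, and the 3 longest and 3 of highest entropy among those with at least 100 reads. Subfamilies named are the 10 with the most stacks or reads. Pairs, hosts of several stacks and the gap window were chosen after their values were seen. Planned sequence motifs were not searched, as no genome of this build was used here. The cell line was not checked by marker genes, since the files hold small RNA. Simulated stacks were used to check member selection, the count of stacks opposite a SINE and the count of members with a same-strand neighbour. Gap lengths, the limit of 100 bases, neighbours on the other strand and repeats on both strands were not checked in this way. The scripts ran with pandas 2.3.3, matplotlib 3.10.9 and scipy 1.17.1 under Python 3.11.15, and numpy 2.4.6 supplied the simulation.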

Additional observations from a re-analysis of the deposited data

How the results depend on the processing

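Alternatives changed the minimum of reads, the limit on edits, the treatment of LINE and LTR items, the deepest stack and long spans. Values were the share of all reads, the number of stacks, the median reads, the Alu share of stacks, the Alu share of reads, the strand share, the share in genes, the median span, the median entropy, the median edits per read and the share of reads in the 10 deepest stacks. Of 88 recomputed values 43 stayed inside the interval of the reported one (or, for the number of stacks, within 1.5 times). As reported they are 0.0761%, 1206, 10, 61.9%, 34.0%, 66.2%, 47.0%, 25 bases, 0.055, 0.133 and 40.5%. Shares of reads have narrow intervals because each read was counted as independent. The interval was 40.1 to 40.9% for reads in the 10 deepest stacks, but 44.2 to 49.9% for stacks in genes. The count of values that stayed thus depends on interval width and is no measure of robustness.

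The minimum of reads moved most. With 2 reads the values that moved were 0.0846% of reads, 3566 stacks, a median of 3 reads, Alu shares of 65.5% and 37.3%, an entropy of 0.028, 0 edits per read and 36.4% in the deepest 10. With 20 reads they were 0.0641%, 304 stacks, 44 reads, Alu 52.3% and 28.3%, strand 69.2%, genes 52.3%, entropy 0.1195 and deepest 48.1%. With 100 reads they were 0.05005%, 72 stacks, 198 reads, Alu 40.3% and 21.6%, strand 73.5%, genes 50%, span 26 bases, entropy 0.1895 and deepest 61.5%.

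Under 0.5 edits per read the share of reads was 0.073%, the Alu share of reads 34.6% and the deepest 10 held 42.2%. With no limit on edits these were 0.108%, 44.1% and 43.9%, Alu gave 58.6% of stacks, the strand share was 63.8% and the median edits per read 0.167. With LINE or LTR items kept they were 0.077%, 34.7% and 40.003%. Without the deepest stack they were 0.061%, 42.4% and 26.9%, and with spans of 100 bases or less 0.0719%, 34.9% and 41.7%.

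Neighbours of at least 2 reads, an alternative chosen after seeing the data, were found for 30.9% of MIR and 12.7% of Alu stacks, and neighbours of at least 20 reads for 11% and 3.62%. MIR exceeded Alu also within 50 bases (19.3% and 6.70%) and within 200 bases (21.9% and 9.12%). The causes of these moves were not tested, apart from the stacks that each choice adds or removes. No paired analysis was possible because the stack list is pooled and each protein has 1 library. A single pooled list gives no spread between samples, and members near the minimum rest on few reads: 193 had exactly 5.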

Other observations

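On the same strand as a precursor stack of at least 5 reads, 1 member lay within 1000 bases, 8 within 2000 and 17 within 10000. The share of other stacks this near was not computed. The nearest was an AluSg stack of 8 reads at chr19:8454389-8454438, 140 bases from the stack of mir-4999, which had 90 reads. Within 2000 bases the deepest was the DLEU2 stack described above, and the next was a MIR3 stack of 77 reads at chr19:52194065-52194086, 1764 bases from the stack of mir-99b. That stack also belongs to a pair, with 10 reads ending 12 bases upstream.

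The list gives a field of conversions beside its edits, for which no source used here names the base change. Over the members it summed to 130, beside 7394 edits, and 45 members had any. Of these, 27 lay in the stack of 420 reads on chromosome X over MIR and Charlie23a, and the highest count in 1 member was 34.

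A SINE was annotated on both strands at 52 members.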
